A study of Mus musculus with 8 samples.

Results

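Matricellular and adhesive glycoproteins of the extracellular matrix were examined in mouse ovarian tumor cells with and without active Notch3. The group was chosen by name and holds 10 genes: Fn1, Postn, Tnc, Sparc, Spp1, Thbs1, Thbs2, Vcan, Tgfbi and Vtn. All 10 were found among the 23284 gene symbols counted. The cells were ID8 IP2, a subline of the ID8 mouse ovarian surface epithelial tumor line that carries luciferase and mCherry and was cultured with serum. Control lines were infected with the pCCL lentiviral vector without an insert. In the Notch3IC lines this vector carried the intracellular domain of Notch3 with an HA tag, and GFP behind an IRES. In this form Notch3 is always active and needs neither to be bound nor to be cut. The study compared these lines to find genes that respond to Notch3 signaling. Each of Sets 1 to 4 came from a separate infection and holds 1 Control and 1 Notch3IC line, so there were 4 libraries per group. All groups share the parental line, and per the study's methods, tests run afterwards pointed to mycoplasma in all of the lines. Control libraries held 19013578 to 28208072 counted reads and Notch3IC libraries 15524262 to 27107061.

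Fibronectin, vitronectin, periostin and tenascin-C bind integrins, and fibronectin and vitronectin anchor cells to the matrix. Matricellular proteins such as periostin, tenascin-C, SPARC, osteopontin and the thrombospondins add little to the physical scaffold of the matrix. They instead modulate adhesion, growth factor activity and matrix assembly. Versican is a large proteoglycan that binds hyaluronan. In the peritoneum these proteins lie in the matrix below the mesothelium, to which disseminated ovarian tumor cells attach.

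Notch3 itself and its targets were read first as a check of the labels. Values are given in the order of Sets 1 to 4. Notch3 had 38.6, 40.6, 70.8 and 42.0 normalized counts in Control and 4319, 467, 9215 and 5839 in Notch3IC lines. The values in Notch3IC lines can include reads of the vector's Notch3 sequence, which were not told apart from those of the cells' own gene. A normalized count is the count of a gene scaled by TMM to a library of mean size. Hey1 and Nrarp, direct targets of Notch, rose with log2 fold changes of 7.35 and 7.34, and Heyl rose from 2 or fewer counts per Control library to between 147 and 7460 in Notch3IC. All Notch3IC libraries lay above all Control libraries for these genes, and Set 2 was the lowest Notch3IC library in each.

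Among the 10 genes, Postn and Tnc rose in Notch3IC cells. Notch3IC was compared with Control by edgeR's quasi-likelihood test over 12430 genes that passed an expression filter, and a gene was called at a Benjamini-Hochberg adjusted p below 0.1 when its log2 fold change was also 1 or more, or -1 or less. Of the 10 genes 8 passed the filter, 2 of these were called higher and none lower, where 3.4% of all genes tested were called higher and 0.74% lower. DESeq2 called 4 of the 10 higher (Fn1, Postn, Thbs1 and Tnc), where it called 5.05% of all genes with an adjusted p higher. At an unadjusted p under 0.05, 5 of the 8 were higher and 0 lower with condition alone (1462 and 827 of the 12430 genes), 5 of the 10 were higher and 0 lower by DESeq2 (1728 and 1135 of 17359 genes), and with the matched set as a replicate block 6 of the 8 were higher and 1, Vcan, lower (2340 and 2009 of the 12430 genes). The block called 4 of the 8 higher (Postn, Thbs1, Thbs2 and Tnc), where 5.19% of all genes were. Tgfbi and Vtn did not pass the filter. The median log2 fold change of the 8 was 1.05, and that of all genes tested was -0.01. Postn passed the filter through its Notch3IC libraries. The numbers called and this median therefore describe the genes tested and support no statement on the whole group. When at least 10 counts in every library were required, 1 of 6 (Tnc) was called higher. Fn1, Thbs1, Thbs2 and Sparc had positive changes that were not called with condition alone, Spp1 was near 0, and Vcan was negative. The libraries were made from whole cultures, so fewer cells expressing a gene and less RNA per cell cannot be told apart.

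**Figure D1:**
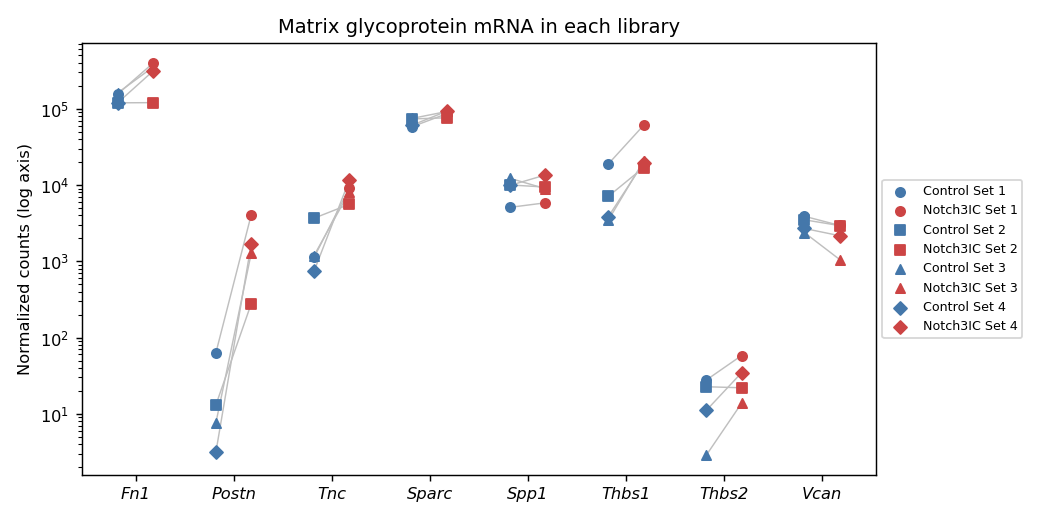
Normalized counts (log axis) of the 8 genes tested, with 1 point per library, Control in blue and Notch3IC in red, and gray lines joining the libraries of a matched set. Postn and Tnc have no overlap between groups, while Spp1 and Vcan do, and the Control and Notch3IC libraries of Set 2 lie close together for Fn1.

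Postn encodes periostin, a fasciclin-domain protein that binds integrins, collagen and tenascin-C. It lies on chromosome 3 of GRCm38 from 54361109 to 54391037 on the plus strand, and its exons overlap no other annotated gene. As deposited, Postn had 64, 11, 8 and 4 counts in Control lines and 3640, 190, 1385 and 1991 in Notch3IC lines. Every Notch3IC library was above every Control library, with Set 1 highest in both groups. The mean rose from 21.8 ± 28.0 to 1825 ± 1607 normalized counts (SD, n = 4 libraries each), a log2 fold change of 6.40 (standard error, SE, 1.08, adjusted p = 0.0250 by edgeR). Within Sets 1 to 4 the log2 ratio of Postn was 5.99, 4.36, 7.29 and 8.84. Leaving out the Control library of Set 3 or Set 4 gave adjusted p = 0.1035 and 0.102, just over the threshold. Without the whole of Set 3 the adjusted p was 0.246, and without Set 4 it was 0.286. Over all fits that left out a library or a set, the log2 fold change of Postn was lowest at 5.66 without the Notch3IC library of Set 1 and highest at 7.91 without its Control library, and it was 7.16 without the whole of Set 1.

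Tnc encodes tenascin-C, a hexameric glycoprotein that modulates cell attachment to fibronectin. It lies on chromosome 4 from 63959785 to 64047015 on the minus strand, and 2.26% of its exon bases overlap 8030451A03Rik on the opposite strand. The libraries' strandedness is not given in the sources used here, so reads of the overlap cannot be assigned. Tnc had 1123, 3669, 1187 and 738 normalized counts in Control and 9093, 5587, 8061 and 11588 in Notch3IC. The groups did not overlap, although the Control library of Set 2 stood far above the other Control libraries and the Notch3IC library of Set 2 was the lowest of its group. Tnc rose from 1679 ± 1341 to 8582 ± 2486 normalized counts (SD, n = 4 each), with a log2 fold change of 2.36 (SE 0.50, adjusted p = 0.0451 by edgeR). The log2 ratio was 0.61 in Set 2 and 3.02, 2.76 and 3.97 in Sets 1, 3 and 4. The call of Tnc was lost without the Control library of Set 3 (adjusted p = 0.146) or Set 4 (0.130), without the Notch3IC library of Set 3 (0.112) or Set 4 (0.140), and without the whole of Set 1 (0.118), Set 3 (0.316) or Set 4 (0.351). Leaving out the Control library of Set 2 gave a log2 fold change of 3.08, and over all fits that left out a library or a set it ran from 1.93 without Set 4 to 3.24 without Set 2.

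The 250 bases before annotated transcription starts were searched for GTGGGAA, a sequence preferred by RBPJ, the DNA-binding partner of the Notch intracellular domain, and for its core TGGGAA, which every GTGGGAA contains, on both strands. RefSeq promoter windows on GRCm38.p6 were present for 8 of the 10 genes, and the windows of Fn1 and Thbs1 are not used here. GTGGGAA was in 2 of 11 windows of these genes and in 5.42% of all 32851 windows, and TGGGAA was in 4 of 11 and in 21.6%. Some windows of a gene overlap. The windows shown stand for a called gene with a match, a called gene without one, and a gene with a match whose change was negative. Capitals mark TGGGAA, and the sequences run 5′ to 3′ on the strand of the gene, at chr4:64046937-64047186 (minus), chr3:54360857-54361106 (plus) and chr13:89742513-89742762 (minus).
Tnc: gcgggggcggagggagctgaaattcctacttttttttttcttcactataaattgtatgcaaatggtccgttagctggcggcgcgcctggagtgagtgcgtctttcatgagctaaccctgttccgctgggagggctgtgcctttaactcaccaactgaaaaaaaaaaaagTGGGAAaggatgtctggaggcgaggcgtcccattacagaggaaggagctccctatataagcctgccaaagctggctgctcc
Postn: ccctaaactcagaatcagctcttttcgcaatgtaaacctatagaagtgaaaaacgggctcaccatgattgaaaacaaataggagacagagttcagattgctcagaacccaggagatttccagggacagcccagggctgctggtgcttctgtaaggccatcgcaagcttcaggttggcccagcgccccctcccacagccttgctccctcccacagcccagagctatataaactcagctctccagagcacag
Vcan: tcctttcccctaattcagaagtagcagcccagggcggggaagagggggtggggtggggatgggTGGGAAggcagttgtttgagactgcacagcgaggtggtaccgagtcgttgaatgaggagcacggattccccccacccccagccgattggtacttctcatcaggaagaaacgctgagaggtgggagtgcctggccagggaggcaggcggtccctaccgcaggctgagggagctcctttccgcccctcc
The first base of the Tnc match lies 81 bases before the annotated start at 64046936. Another annotated Tnc start, at 64047015, falls within this match, and the window before that start holds no GTGGGAA. The Vcan match begins 187 bases before the start at 89742512. In both, a G precedes the capitals and completes GTGGGAA. A match describes these letters in this window only, and binding was not measured.

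Fibronectin, which assembles into fibrils through integrin binding and carries other matrix proteins, was the most abundant of the group by counts. Fn1 lies on chromosome 1 from 71585520 to 71653200 on the minus strand, with 2.5% of its exon bases over Apol7d on the opposite strand. It had 156236, 119509, 161675 and 120148 normalized counts in Control and 397849, 120232, 352549 and 312817 in Notch3IC. The Notch3IC library of Set 2 lay among the Control libraries, and the other 3 lay above all of them. Its means were 139392 ± 22701 and 295862 ± 122131 (SD, n = 4 each), a log2 fold change of 1.09 (SE 0.34, 95% interval 0.31 to 1.86, adjusted p = 0.134 by edgeR), which was not called. Without the Notch3IC library of Set 2 Fn1 was called (log2 fold change 1.34, adjusted p = 0.00447), and likewise without the whole of Set 2 (1.28, adjusted p = 0.0146). Fn1 alone took 0.633%, 0.527%, 0.716% and 0.538% of all counts in Control lines and 1.55%, 0.529%, 1.51% and 1.37% in Notch3IC.

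Thrombospondin-1 is a trimeric glycoprotein that binds CD36, CD47 and integrins and can activate latent TGF-beta. Thbs1, on chromosome 2 from 118111876 to 118127133, had 18808, 7082, 3438 and 3830 normalized counts in Control and 60478, 16922, 20568 and 19521 in Notch3IC. Each of the 4 sets had a rise, with log2 ratios of 1.69, 1.26, 2.58 and 2.35, but the groups overlapped because the Control library of Set 1 was above the Notch3IC library of Set 2. The log2 fold change was 1.83 (SE 0.65, adjusted p = 0.176 by edgeR with condition alone). With the matched set as a replicate block it was 1.97 (SE 0.24, adjusted p = 0.0215), and Thbs1 was called. It was also called without the Control library of Set 1 (log2 fold change 2.62, adjusted p = 0.0577) and without the whole of Set 1 (1.99, adjusted p = 0.0637). Without the Notch3IC library of Set 1, the highest of its group, the log2 fold change was 1.21 (adjusted p = 0.286).

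Thbs2, which encodes the related thrombospondin-2, was expressed at a far lower level. Deposited counts of Thbs2 stood at 28, 19, 3 and 14 in Control and 52, 15, 15 and 41 in Notch3IC. The groups overlapped, and Set 2 had no rise in normalized counts (22.7 in Control, 22.0 in Notch3IC). The log2 fold change was 1.01 (SE 0.65, 95% interval -0.49 to 2.50, adjusted p = 0.469 by edgeR). With the replicate block it was 1.10 (SE 0.37, adjusted p = 0.0930) and was called. Thbs2 lies on chromosome 17 from 14665500 to 14694235.

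SPARC, or osteonectin, binds collagen and is a marker of matrix-producing cells. Sparc lies on chromosome 11 from 55394500 to 55423183. It had 58098, 73497, 74680 and 60851 normalized counts in Control and 86728, 76172, 92292 and 93475 in Notch3IC. All 4 Notch3IC libraries were above all Control libraries, which among the 8 tested was also so for Postn and Tnc, against 7.08% of all genes tested. The difference was small (log2 fold change 0.38, SE 0.14, 95% interval 0.07 to 0.70, adjusted p = 0.182 by edgeR) and was not called. Within Sets 1 to 4 the log2 ratio of Sparc was 0.58, 0.05, 0.31 and 0.62.

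Osteopontin, encoded by Spp1, is a secreted phosphoprotein that binds integrins and CD44. Spp1 had 5098, 10018, 12225 and 9908 normalized counts in Control and 5845, 9400, 8946 and 13542 in Notch3IC. Both libraries of Set 1 were the lowest of their groups, and the groups overlapped. The log2 fold change was 0.02 (SE 0.31, adjusted p = 0.985 by edgeR), with a 95% interval of -0.69 to 0.72, and its sign depended on the normalization. Spp1 lies on chromosome 5 from 104435118 to 104441050, and 18.8% of its exon bases overlap Gm42793 on the same strand, whose reads cannot be told apart there.

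Versican joins hyaluronan to other matrix proteins and gives the pericellular matrix its bulk. Vcan, on chromosome 13 from 89655312 to 89742509, had 3895, 3499, 2382 and 2695 normalized counts in Control and 2949, 2938, 1055 and 2163 in Notch3IC. It was lower in Notch3IC in 4 of 4 sets, with log2 ratios of -0.40, -0.25, -1.17 and -0.32, and the groups overlapped. The log2 fold change of -0.45 (SE 0.31, 95% interval -1.17 to 0.26, adjusted p = 0.498 by edgeR) was not called. With the replicate block it was -0.53 (SE 0.16, adjusted p = 0.0809), past the p threshold and short of the fold-change limit. Among all genes tested, 19.4% were lower in 4 of 4 sets.

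Tgfbi encodes a collagen-binding protein with fasciclin domains, related to periostin. Only 1, 11, 3 and 1 counts were found in Control and 10, 7, 1 and 2 in Notch3IC, and at this depth no difference was detectable (p = 0.886, two-sided exact permutation test over the 70 splits of 4 against 4 libraries, whose smallest p is 0.0286). Tgfbi lies on chromosome 13 from 56609523 to 56639562.

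Vitronectin is an adhesive glycoprotein of plasma and matrix that is made mostly by hepatocytes. Vtn, on chromosome 11 from 78499091 to 78502324, had 0 counts in all 4 libraries of Sets 1 and 2. It had 8 and 26 counts in the Control libraries of Sets 3 and 4 and 13 and 18 in the Notch3IC libraries. Counts were thus present in Sets 3 and 4 under both conditions, and no difference between conditions was detectable (p = 1 in the same exact permutation test, smallest p 0.0286). Here and for Tgfbi the splits of that test ignore the matched sets. Within Sets 3 and 4 the log2 ratio of Vtn was 0.61 and -0.43. Liver transcripts moved with Vtn. Alb, the albumin gene, had 0, 0, 0 and 1 counts in the libraries of Sets 1 and 2, while in Sets 3 and 4 the Control lines had 351 and 804 and the Notch3IC lines 329 and 543. All 4 genes of a hepatocyte list (Alb, Apoa1, Ttr and Serpina1a) had counts in each library of Sets 3 and 4, summing to 394 and 920 in Control and 370 and 645 in Notch3IC, against 1 or 2 counts per library in Sets 1 and 2. Vtn made up 2.23%, 3.13%, 3.8% and 3.21% of Vtn plus Alb counts in Control Set 3, Control Set 4, Notch3IC Set 3 and Notch3IC Set 4, and the exact 95% intervals, which cover counting error only, ran from 0.967% to 6.41% and overlapped. The source of these liver transcripts was not tested.

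**Figure D2:**
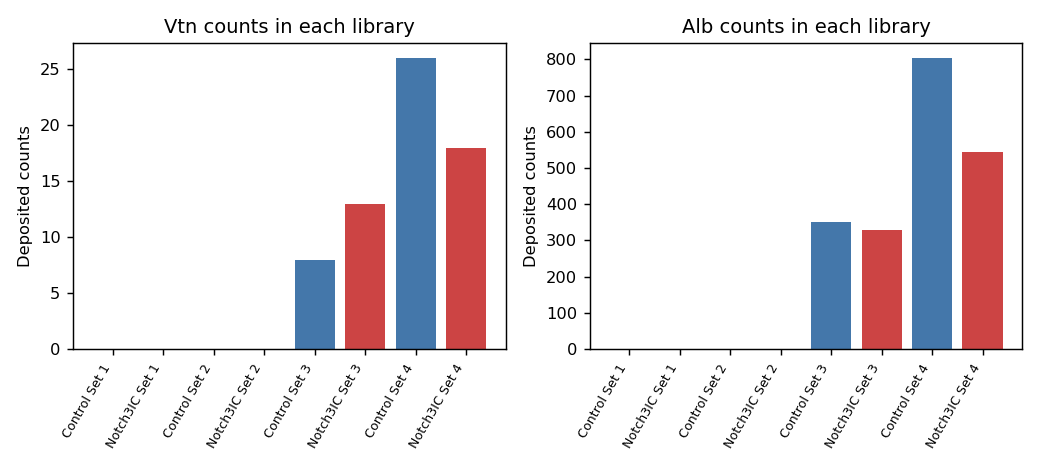
Deposited counts of Vtn (left) and Alb (right) in each library, Control in blue and Notch3IC in red. Both genes have counts in the 4 libraries of Sets 3 and 4, and 0 or at most 1 in those of Sets 1 and 2.

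The size of the change differed between the sets. In each of the 8 genes tested, Set 2 had the log2 ratio nearest to 0 of the 4 sets, where the same held for 53% of all genes tested. The median log2 ratio of the 8 genes was 1.20, 0.03, 1.60 and 1.49 in Sets 1 to 4. The log2 ratio of Notch3, whose counts can include vector reads, was 6.79, 3.51, 7.01 and 7.10. With 1 library per condition in a set, the difference between sets was not tested. Fn1, Postn, Tnc, Sparc and Thbs1 were higher in Notch3IC in 4 of 4 sets, against 21% of all genes tested. In Fn1 the ratio of Set 2 was 0.0087, so its direction there rests on nearly equal values.

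**Figure D3:**
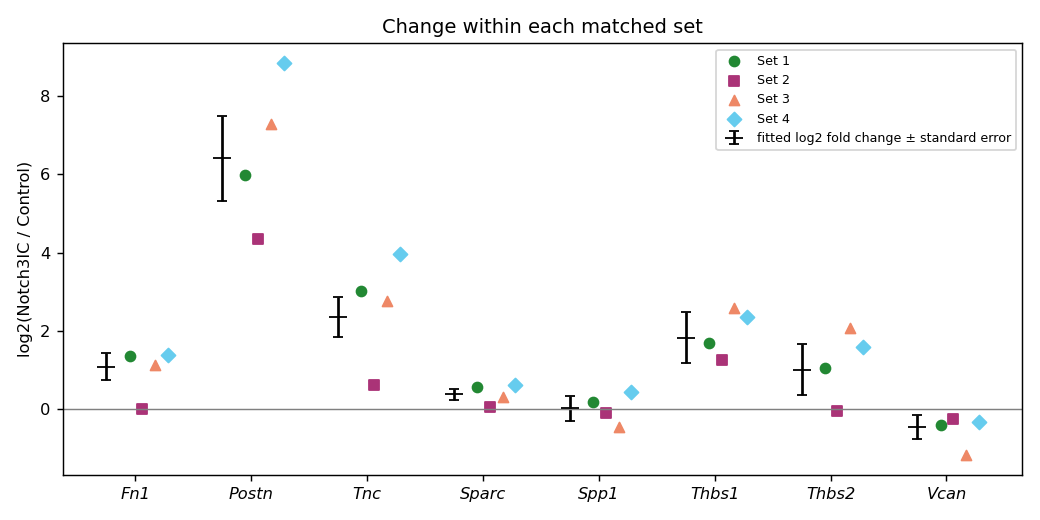
Log2 ratio of Notch3IC to Control normalized counts within each matched set (colored points) beside the fitted log2 fold change with its standard error (black) for the 8 genes tested. Set 2 is the point nearest to 0 in each gene, and Postn has the highest value in every set.

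Levels were compared between genes as normalized counts per kilobase of annotated exon, which understates genes whose expressed isoform is shorter than the union of their exons. In Control, Sparc was highest at 17630 ± 2251, followed by Fn1 at 11930 ± 1943, Spp1 at 5651 ± 1824 and Thbs1 at 1365 ± 1186 (SD, n = 4). Tnc and Vcan were equal within their spread at 216 ± 173 and 216 ± 48.4. The Control library of Set 2 raised the mean of Tnc, with 3670 normalized counts against 738 to 1190 in the other Control libraries. Vtn, Postn, Thbs2 and Tgfbi were all below 4 per kilobase and did not differ beyond their spread. In Notch3IC, Fn1 at 25320 ± 10450 and Sparc at 23010 ± 2085 did not differ beyond their spread, nor did Spp1 at 5724 ± 1919 and Thbs1 at 4837 ± 3424. Tnc stood at 1104 ± 320. Postn at 209.7 ± 184.7 per kilobase overlapped Vcan at 157 ± 61.8, a gene it lay far below in Control. The 10 genes together took 0.986%, 0.958%, 1.13% and 0.887% of all counts in Control lines and 2.21%, 1.02%, 2.08% and 1.99% in Notch3IC.

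**Figure D4:**
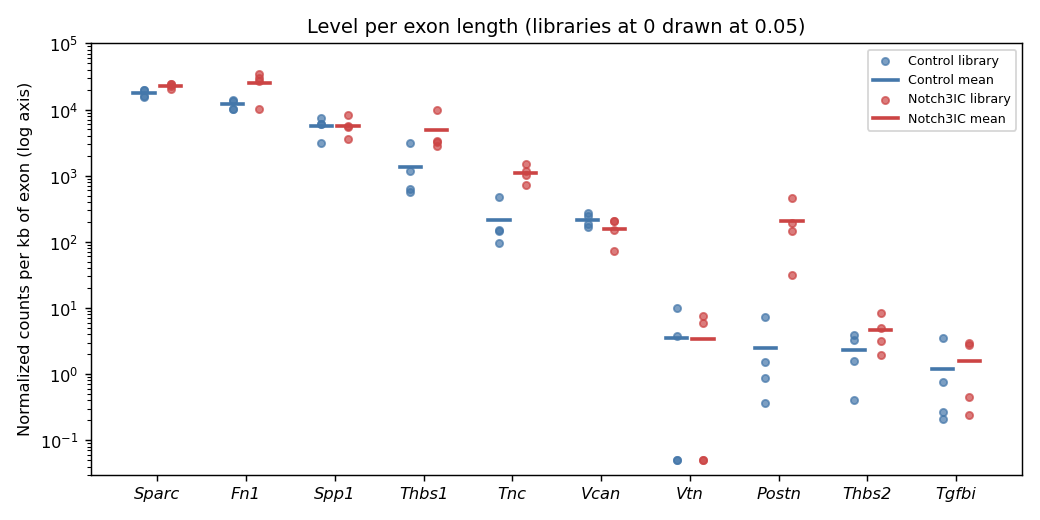
Normalized counts per kilobase of exon (log axis) of the 10 genes, ordered by their Control mean, with points for libraries and bars for group means, Control in blue and Notch3IC in red. Postn moves from among the lowest genes to the level of Vcan, while Sparc and Fn1 have the highest means in both groups, and Spp1 and Thbs1 overlap in Notch3IC.

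The genes whose pattern over the 8 libraries was most like each member's were read from Pearson's r of log2 normalized counts among the 12430 genes tested. These are the highest of many correlations, and the points share condition and set. For Postn they were Jam3 and Dkk3 (r = 0.996 for both), for Tnc Sspn (0.993) and Copz2 (0.992), for Fn1 Tmx4 (0.992) and Arhgef2 (0.989), and for Thbs1 Eml1 (0.993) and Tgfb1i1 (0.991). For Sparc they were Casp12 (0.982) and Man2a2 (0.978), for Spp1 Slc38a9 (0.97) and Cgrrf1 (0.967), for Thbs2 Suv420h1 (0.986) and Grem1 (0.978), and for Vcan Sik3 (0.985) and Fam57a (0.966). Among the members, Postn and Thbs1 were the most alike (r = 0.918 over 8 libraries), followed by Sparc and Tnc (0.899), and Sparc and Vcan had the most negative value (-0.642).

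Further matricellular genes were read from a list of 22, among them the other thrombospondins and tenascins, the SPARC relatives and the lecticans. Of these 6 passed the filter, 2 were called higher and none lower, against 3.4% and 0.74% of all genes tested. The median log2 fold change of the 6 was 0.63. Like Postn, Smoc1 passed the filter through its Notch3IC libraries, so this count and median describe the 6 genes only. With at least 10 counts required in every library, 1 of 5 (Thbs3) was called. Smoc1, a SPARC-related calcium-binding protein that antagonizes BMP, rose from 11.6 ± 8.05 to 396 ± 209 normalized counts (mean ± SD, n = 4 each; log2 fold change 5.12, SE 0.73, adjusted p = 0.0181 by edgeR). Thbs3, a pentameric thrombospondin, rose from 84.3 ± 27.3 to 269.9 ± 62.8 (log2 fold change 1.69, SE 0.28, adjusted p = 0.0248). In both genes all Notch3IC libraries were above all Control libraries. Thbs3 had adjusted p = 0.1035 without the Control library of Set 3. The most abundant of the list were Ecm1 and Mfge8. Ecm1 passed the p threshold and not the fold-change limit (log2 fold change 0.81, adjusted p = 0.0963), and Mfge8, an RGD-containing integrin ligand, had a log2 fold change of 0.46 (adjusted p = 0.260). By edgeR, Ecm1 was called without the Control library of Set 2 (adjusted p = 0.0567) and without the whole of Set 2 (log2 fold change 1.05, adjusted p = 0.0393). It missed the p threshold with library totals (0.1004) and with at least 10 counts in every library (0.102). No lectican other than Vcan had more than 2 counts in any library.

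Of 17 receptor genes for these glycoproteins, 13 were tested, 3 were called higher and none lower (3.4% and 0.74% of all genes tested), with a median log2 fold change of 0.23. Itga9 passed the filter through its Notch3IC libraries, so this count and median describe the 13 genes only, and 2 of 11 were called when at least 10 counts in every library were required. The 3 were integrin subunits. Itga9, whose product binds tenascin-C and osteopontin as integrin alpha9 beta1, had 11.9, 20.3, 4.8 and 6.3 normalized counts in Control and 734, 297, 1614 and 1718 in Notch3IC lines (log2 fold change 6.70, SE 0.72, adjusted p = 0.0151). Itgb3 and Itgb5 pair with the alpha-v subunit to form vitronectin receptors, and their log2 fold changes were 2.59 (SE 0.56, adjusted p = 0.0456) and 1.65 (SE 0.29, adjusted p = 0.0287). In Set 2 Itgb3 had 945 normalized counts in Control and 1015 in Notch3IC, nearly equal, whereas Itga9 was higher in Notch3IC in each set. Without the whole of Set 2 the log2 fold changes of Itgb3 and Itga9 were 3.22 and 7.46. The 2 receptor genes with the most counts were not called: Itgb1 had a log2 fold change of 0.14 (adjusted p = 0.821) and Sdc4, a fibronectin co-receptor, of -0.47 (adjusted p = 0.278).

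Of 17 genes for proteases, crosslinkers and binding partners, 13 were tested. Of these 5 were called higher and none lower (again beside 3.4% and 0.74% of all genes), with a median log2 fold change of 0.82. The list was chosen with earlier results of these data known, so this count and median describe the 13 genes only. Bmp1, a procollagen proteinase, rose from 1736 ± 301 to 5255 ± 2170 normalized counts (mean ± SD, n = 4 each; log2 fold change 1.60, adjusted p = 0.0359). Has2, which synthesizes the hyaluronan that versican binds, had a log2 fold change of 2.63 (SE 0.59, adjusted p = 0.0497), and Adamts4, a protease that cleaves versican, of 2.42 (SE 0.45, adjusted p = 0.0326). Tgfb1, whose latent product thrombospondin-1 can activate, had a log2 fold change of 1.49 (SE 0.34, adjusted p = 0.0508), and Fbln1, which binds fibronectin and versican, of 1.39 (SE 0.33, adjusted p = 0.0610). Without the Notch3IC library of Set 1, the highest of its group, the log2 fold change of Has2 was 1.79 (adjusted p = 0.0545), and dropping both libraries of Set 1 gave 2.01. In Set 2 Tgfb1 was 796 normalized counts in Control and 833 in Notch3IC. Calr and Fbln2 had the most counts and were not called (log2 fold changes -0.23 and 0.82, adjusted p = 0.473 and 0.487), and Fbln2 moved to 0.22 without the Notch3IC library of Set 1 and to 1.44 without its Control library. Among the 10 genes called in the 3 lists, Smoc1 and Itga9 kept their calls when any 1 library was left out, and without the whole of Set 3 or Set 4 none of the 10 was called (by edgeR, 3 genes of the first list, 3 receptors and 7 partners were higher at an unadjusted p under 0.05 in either case, as were 806 of 12418 genes without Set 3 and 742 of 12378 without Set 4). The 8 called genes apart from Smoc1 and Itga9 lost theirs without the Control library of Set 3 (adjusted p from 0.1035 to 0.179). Without the Control library of Set 4, Itgb3, Itgb5 and the 5 partners lost theirs (0.116 to 0.1705), and without the Notch3IC library of Set 4 Itgb3, Bmp1, Has2, Adamts4, Tgfb1 and Fbln1 did so (0.108 to 0.169). Itgb3 (0.120) and Tgfb1 (0.131) were also lost without the Notch3IC library of Set 3, and Fbln1 (0.117) without that of Set 1. Without the whole of Set 1, Tgfb1 (0.1032) and Fbln1 (0.1103) lost their calls.

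**Figure D5:**
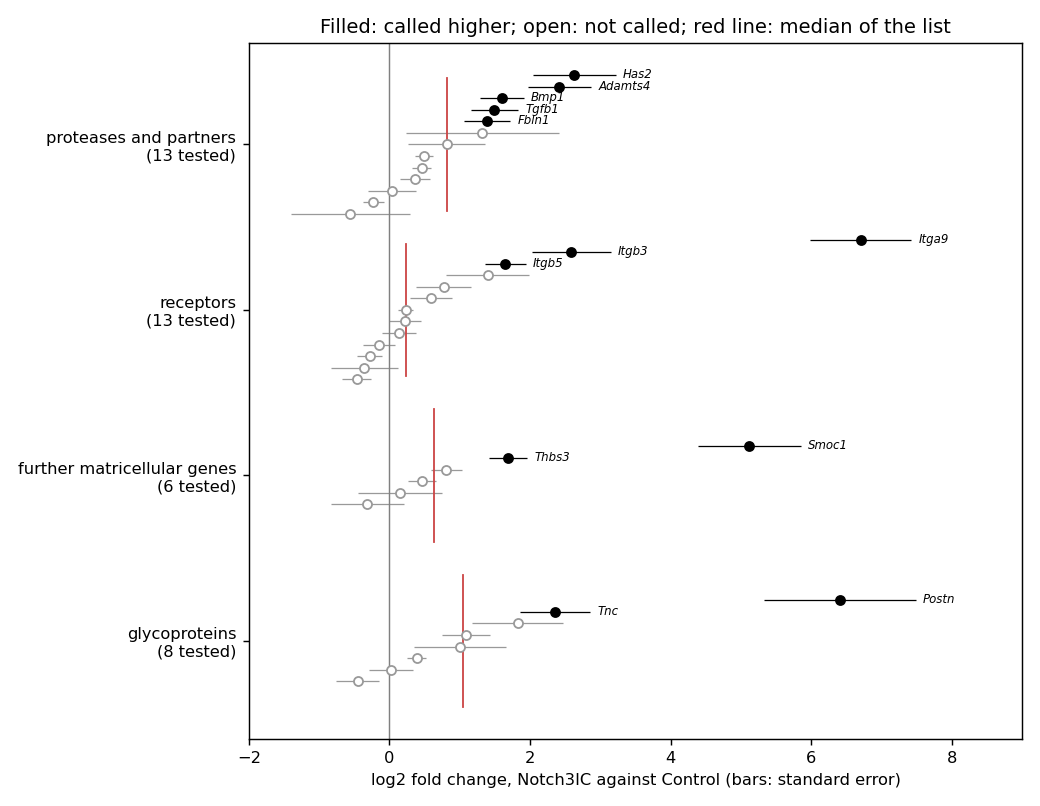
Log2 fold change of Notch3IC against Control with its standard error for each gene tested of the glycoprotein group and of 3 lists of related genes, filled where called higher and open where not called, with the list median in red. The called genes run from 1.39 (Fbln1) to 6.70 (Itga9), and no gene of the 4 lists was called lower.

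Markers of cell type were read beside these values. The lines carried ovarian surface and mesothelial markers, with 9 of 11 tested and Upk3b the most abundant, while Epcam had at most 12 and Krt7 at most 46 counts in any library. The list summed to 24820, 45610, 72280 and 69310 normalized counts in Control and 7347, 28920, 25650 and 19730 in Notch3IC. All 9 tested had negative changes, with a median log2 fold change of -1.64, and Msln and Upk1b were called lower. For this and the following marker lists, 3.4% of all genes tested were called higher and 0.74% lower. Of 7 fibroblast genes 5 were tested and Pdgfrb was called higher (log2 fold change 5.99, adjusted p = 0.0169 by edgeR). Summed, and mostly from Col1a1, they stood at 170700, 128000, 97590 and 74030 in Control and 336100, 157400, 201200 and 246600 in Notch3IC lines, where Thy1 and Lum stayed at 4 counts or fewer in all 8 libraries. Dcn, which encodes decorin, was lower in Notch3IC in 4 of 4 sets and was not called (log2 fold change -0.47, SE 0.76, adjusted p = 0.809). Of 6 mural and smooth muscle genes 4 were tested and Cspg4 was called higher (log2 fold change 4.20, adjusted p = 0.0169). Their sum, mostly Acta2, was 35600, 11280, 7422 and 2971 in Control and 78740, 17690, 23580 and 15630 in Notch3IC, highest in Set 1 in both groups as for Postn, Thbs1 and Thbs2. The part of these shifts in the values of the glycoprotein genes was not tested. Leukocyte genes summed to 53 to 160 counts per library with Ptprc at 0 in 7 of 8 libraries, and Cd68 was the most abundant. Of 2 leukocyte genes tested Csf1r was called higher, with 9, 10, 7 and 9 counts in Control and 36, 10, 22 and 28 in Notch3IC lines (log2 fold change 1.52, SE 0.38, adjusted p = 0.0719). Like Postn, Csf1r passed the filter through its Notch3IC libraries, and both libraries of Set 2 had 10 counts. Endothelial genes summed to 16 to 48 counts with Cdh5 at 2 or fewer.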

How the data were processed

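RNA of the 8 lines was sequenced, and the authors deposited 1 file per library with raw counts per gene symbol. Per the study's methods and the submitters' processing notes, TopHat aligned the reads to the mouse build mm9, and Cufflinks gave the counts per gene. Versions, gene annotation and strandedness are not given in the sources used here, so reads of overlapping genes and of close copies cannot be assigned with certainty. Totals per library are the depth given above, and no symbol was blank or repeated.

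The 10 genes and the lists of related genes and markers were chosen with earlier results of these data known. Counts were tested as deposited with edgeR 4.0.16 in R 4.3.3 (TMM factors, filterByExpr by condition, robust quasi-likelihood F test on condition alone, Benjamini-Hochberg adjustment over 12430 genes), at the thresholds of the study. The authors used DESeq, and DESeq2 1.42.0 was an alternative. The standard error of a log2 fold change is its size divided by the square root of F. Within-set log2 ratios used normalized counts plus 0.5. The 30 named genes were the 10 members, Notch3, Hey1, Heyl and Nrarp, every called gene of 3 lists (relatives, receptors, partners) and the 2 with the most counts in each. The 2 genes most correlated with each tested member were named as a description only and were not searched for libraries that stood apart. The code was tested on simulated data.

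The study's methods describe matched sets. Deviations from the group means of libraries with the same set number correlated with r = 0.80, 0.40, 0.57 and 0.41 across genes in Sets 1 to 4. Each of these was the highest value for its libraries. Control Set 3 with Notch3IC Set 4 (0.37) and Control Set 4 with Notch3IC Set 3 (0.36) came close to the value of Set 4. The correlations thus separate Sets 3 and 4 poorly, and the pairing rests on the set numbers and the study's methods. The set was fitted as a replicate block in an alternative. Libraries of a group differed by more than sampling noise (chi-square per degree of freedom of at least 13.35), so none was a repeat of another. Lines of a set came from 1 parental line, so p-values describe the spread between infections of that line. Exon lengths, overlaps and coordinates came from GENCODE M21 (GRCm38), which is not the build of the counts and enters no test. Other alternatives were RLE, upper-quartile and library-total scaling, other filters and thresholds, a pseudocount of 5, and fits that dropped 1 library or 1 set at a time.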

Additional observations from a re-analysis of the deposited data

Results flagged for a closer look

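Each group of 4 libraries was searched for 1 library far from the other 3, in 30 named genes and the library totals. Of 62 groups 11 held such a library, where about 1 in 20 (3.1 groups) would by chance, and genes of 1 library are not independent. Library totals were not among them.

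Set 1 accounted for 8 of the 11. In Control Set 1, Postn reached 63.4 normalized counts against 3.17 to 13.1 in Control Sets 2 to 4. Thbs1 had 60500 in Notch3IC Set 1 against 16900 to 20600, Has2 had 2620 against 487 to 714, and Ecm1 had 9760 against 5740 to 6270. Itgb1 stood apart in both libraries of Set 1, at 25300 against 15200 to 16100 in Control and 28500 against 16300 to 17600 in Notch3IC. Fbln2 did so as well, at 52100 against 13200 to 19500 in Control and 90400 against 26400 to 32000 in Notch3IC. In Control Set 2, Tnc stood at 3670 against 738 to 1190 in the 3 remaining Control libraries, and Tgfbi had 13.1 against 0.792 to 2.87. In Control Set 3, Notch3 had 70.8 against 38.6 to 42.0, below the lowest Notch3IC library.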

How the results depend on the processing

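The 2 glycoprotein genes called higher (Postn and Tnc), and the counts of 423 genes higher and 92 lower over all genes, were recomputed under each alternative, and no glycoprotein gene was called lower under any. DESeq2 called 708 genes higher and 192 lower, with 4 glycoprotein genes (Fn1, Postn, Thbs1 and Tnc). The replicate block called 645 higher and 315 lower, with 4 (Postn, Thbs1, Thbs2 and Tnc), and changed no other call of the 10. When every library had to hold at least 10 counts, 301 of 11514 genes were called higher and 73 lower, and 1 glycoprotein gene (Tnc), 1 relative (Thbs3) and 2 receptors (Itgb3 and Itgb5) were called, since Postn, Smoc1 and Itga9 were no longer tested. At an adjusted p under 0.05, 48 genes were lower and 3 partners higher, and with no fold-change limit 210 genes were lower. Spp1 turned to -0.0012 by DESeq2 and -0.014 with library totals. No other scaling or filter turned a direction or lost a call among the glycoprotein genes, and the median over all genes tested stayed between -0.04 and 0.02.

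Leaving out a library or a set also moved the counts. Over all genes 0 to 702 were higher and 0 to 305 lower, with 0 to 3 glycoprotein genes, 0 to 3 relatives, 0 to 4 receptors and 0 to 5 partners called. Called higher and lower were 75 and 8 genes without Control Set 3, 99 and 11 without Control Set 4, 201 and 29 without Notch3IC Set 3, 155 and 16 without Notch3IC Set 4, and 702 and 305 without Notch3IC Set 2. Without the whole of Set 3, 1 gene was called (806 higher and 295 lower at an unadjusted p under 0.05 by edgeR), and without Set 4 0 (742 and 269). Spp1 ran from -0.21 to 0.20 and Itgb1 from -0.079 to 0.34. The causes were not tested. Vtn, Tgfbi and Thbs2 had few counts, which limits what could be detected.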
